A study of Mus musculus with 14 samples.

Results

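Saliva is secreted as a salty fluid that follows chloride across the acinar epithelium, and 9 genes of this machinery are described here across 14 RNA sequencing libraries of mouse submandibular gland cells. The genes were taken by name from the deposited table of counts: the muscarinic receptors Chrm1 and Chrm3, the calcium release channel Itpr2, the chloride importer Slc12a2, the chloride channel Ano1, the potassium channels Kcnn4 and Kcnma1, the water channel Aqp5, and Fxyd2, a small regulator of the sodium pump. They are 9 of 54532 genes in the table, and 9 of the 15915 genes with enough counts to be tested.

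In salivary acinar cells, acetylcholine acts on muscarinic receptors, and inositol trisphosphate then opens calcium channels of the endoplasmic reticulum. The calcium rise opens chloride channels on the luminal side and potassium channels, chloride is replaced through a basolateral sodium, potassium and chloride cotransporter, and water follows through an apical water channel. Duct cells then take salt back from the fluid, driven by the sodium pump. Radiation of the head and neck is known to leave salivary glands with low fluid output.

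All 14 libraries came from the submandibular gland, 1 of the major salivary glands, of adult mice labelled TertCreERT2/+Rosa26LSL-tdTomato/+, in which 1 Tert allele carries a tamoxifen-inducible Cre recombinase and Cre switches on the red reporter tdTomato. Cells were sorted as viable by the dye DAPI, positive for the epithelial surface protein EpCAM, and positive (Tert+) or negative (Tert-) for tdTomato, so Tert+ marks reporter history and not Tert RNA at sorting. The groups were Tert+ without radiation (n = 3), Tert- without radiation (n = 3), Tert+ after 15 Gy (n = 4) and Tert- after 15 Gy (n = 4); radiation is written RT below. The labels used here do not give the mice's age in weeks, their sex, the time from RT to sorting, or whether each library came from its own animal; the p-values therefore reflect differences among libraries and not necessarily among animals.

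Total counts ran from 5520412 to 15943597 per library, and 3 counts, taken as the limit that a count of 0 allows, were worth 0.190 to 0.544 CPM (counts scaled to a common library total, as defined by edgeR). The label field for the cell type names the other population than the title in 14 of 14 libraries. Groups here follow the titles, and the sample descriptions go with the titles. Tert itself had 0 to 8 counts per Tert+ library and 13 to 28 per Tert- library without RT, the reverse of the titles' order. It had 0 to 52 against 0 to 15 after RT. As Tert+ marks reporter history, these counts do not settle which label is right. The sorted cells were not purely epithelial by RNA: Epcam had a median of 43.6 CPM and the B cell gene Cd79a 2794 CPM. Tert+ without RT replicate 1 stood apart, with 7.26% of its counts on the secreted mucin-like gene Mucl2. The sample descriptions give the libraries without RT numbers between 1 and 8, not all of them used, and those after it the numbers 9 to 16. RT and any order of handling therefore cannot be told apart.

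Promoter windows of 300 bases, 250 before and 50 after the annotated start, were taken from RefSeq (GRCm38.p6) for 6 of the 9 genes, namely Aqp5, Ano1, Kcnn4, Kcnma1, Chrm3 and Itpr2. Those of Kcnn4, the gene with the clearest difference with RT, and of Ano1 and Kcnma1, whose levels moved together over the libraries, are shown 5′ to 3′ on each gene's own strand. Capitals mark GGGCGG or its reverse complement CCGCCC, the GC box letters. The windows are chr7:24370013-24370312 on the plus strand for Kcnn4, chr7:144738524-144738823 on the minus strand for Ano1 and chr14:24004156-24004455 on the minus strand for Kcnma1.
Kcnn4: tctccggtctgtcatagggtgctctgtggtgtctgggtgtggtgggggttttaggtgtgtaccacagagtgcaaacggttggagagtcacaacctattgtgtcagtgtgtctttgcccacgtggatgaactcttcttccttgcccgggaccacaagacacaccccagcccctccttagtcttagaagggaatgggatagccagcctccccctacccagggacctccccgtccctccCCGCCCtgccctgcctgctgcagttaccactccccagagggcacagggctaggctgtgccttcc
Ano1: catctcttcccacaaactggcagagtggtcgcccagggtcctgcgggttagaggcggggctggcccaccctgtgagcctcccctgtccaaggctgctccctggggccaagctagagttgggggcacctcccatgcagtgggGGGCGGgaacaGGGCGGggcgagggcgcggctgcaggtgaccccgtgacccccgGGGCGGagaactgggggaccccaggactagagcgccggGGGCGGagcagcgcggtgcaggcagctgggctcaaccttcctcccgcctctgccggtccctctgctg
Kcnma1: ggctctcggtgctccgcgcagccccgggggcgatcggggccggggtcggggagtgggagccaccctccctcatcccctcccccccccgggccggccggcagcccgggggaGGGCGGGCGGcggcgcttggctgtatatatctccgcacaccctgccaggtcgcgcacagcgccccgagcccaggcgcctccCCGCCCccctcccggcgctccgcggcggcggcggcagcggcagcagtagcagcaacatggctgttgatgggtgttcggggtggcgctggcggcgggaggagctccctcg

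On both strands and with overlapping matches counted, GGGCGG was found 1 time in the Kcnn4 window, 4 times in that of Ano1 and 3 times in that of Kcnma1. It was found 3 times for Aqp5, 5 times for Itpr2 and 0 times for Chrm3, and 35.7% of 32851 promoter windows of the same length hold it. TATAAA was found in 0 of the 6 windows, against 13.6% of all windows. The E-box letters CANNTG were found in the windows of Aqp5, Ano1, Kcnn4, Chrm3 and Itpr2 and not in that of Kcnma1, against 72.3% of all windows. The Ano1 and Kcnma1 windows lie inside the genes as the count table bounds them, at start sites downstream of the outermost ones.

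Levels of the 9 genes spanned a wide range. Per kilobase of gene length, the median over the 14 libraries was 36.6 CPM for Fxyd2 and 10.8 for Itpr2. It was 6.99 for Aqp5, 5.07 for Slc12a2, 4.73 for Kcnn4 and 2.61 for Ano1. Kcnma1 had 0.4998, Chrm1 0.0890 and Chrm3 0.0396 CPM per kilobase. Neighbours in this order between Aqp5 and Ano1 overlapped widely from library to library, as the plot of levels by library shows. From the lowest to the highest library Aqp5 differed 86.2-fold, Ano1 25.6-fold, Kcnn4 24.2-fold and Slc12a2 21.9-fold, whereas Fxyd2 differed 7.67-fold and Itpr2 3.46-fold. Tert+ without RT replicate 1 was the highest library for Aqp5, Slc12a2, Kcnn4 and Kcnma1, and Tert+ after RT replicate 4 the lowest for Fxyd2, Slc12a2, Kcnn4, Ano1 and Kcnma1.

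**Figure D1:**
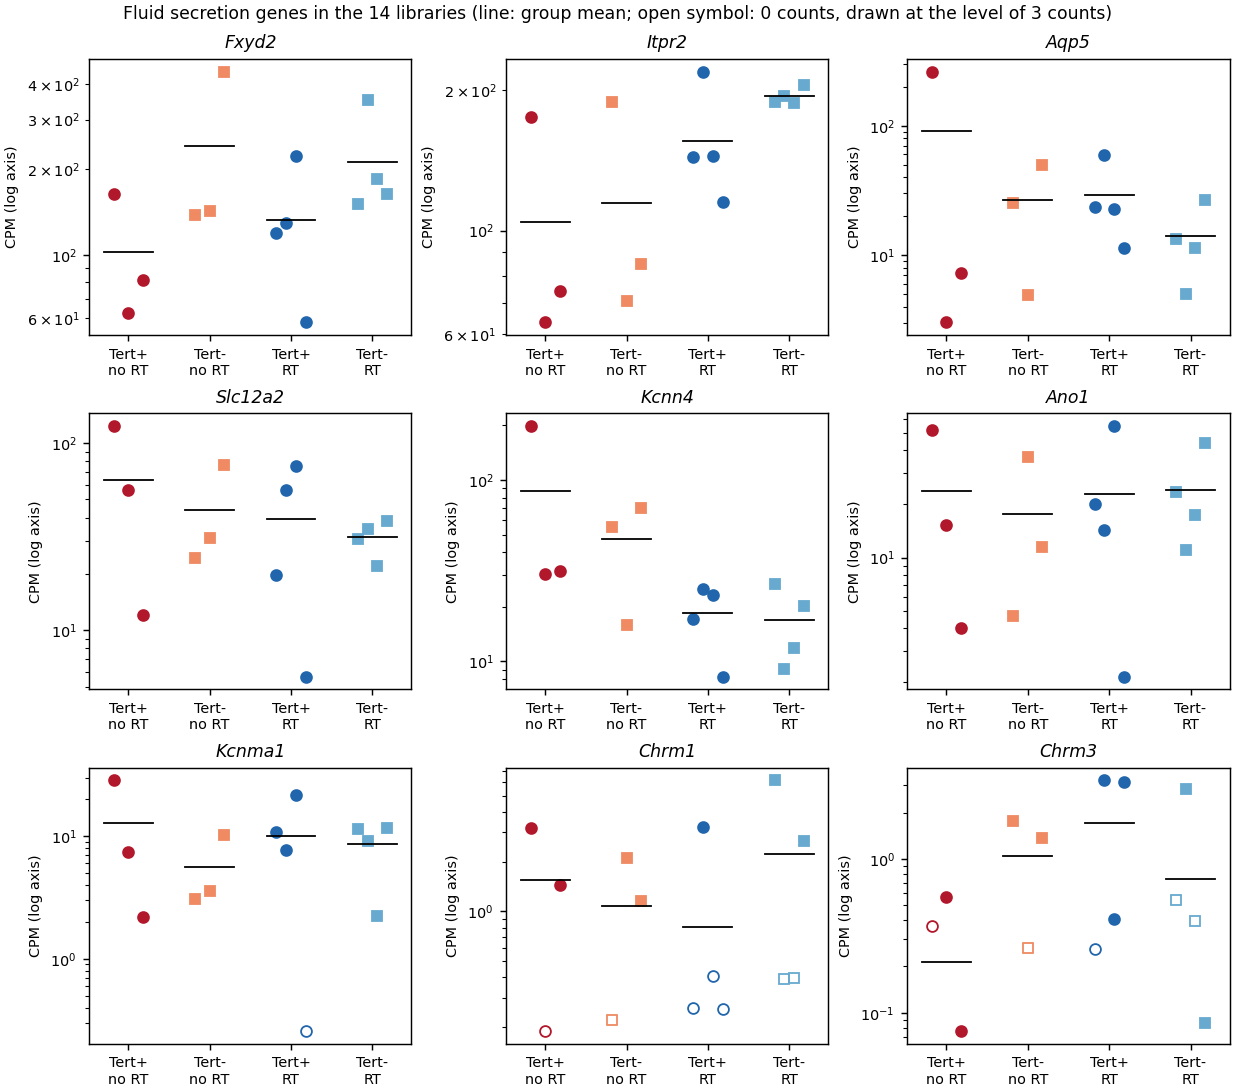
Level of each of the 9 genes in each library, as CPM on a log axis (vertical), with 1 panel per gene, the 4 groups side by side, 1 point per library, a line at each group's mean, and open symbols for a count of 0 drawn at the level of 3 counts. Aqp5 spans 3.03 to 262 CPM, and Itpr2 stays between 63.5 and 219 CPM.

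The receptors that start secretion were near the limit of detection. Chrm3 (ENSMUSG00000046159, mm10 chromosome 13, 9875486 to 10360847, minus strand), the main muscarinic receptor of salivary acinar cells, was counted at 0, 9 and 1 reads in Tert+ and 24, 0 and 13 in Tert- without RT. After RT the Tert+ libraries had 0, 20, 3 and 37 counts and the Tert- libraries 0, 22, 0 and 1. It was at 0 in 5 of 14 libraries, with at least 1 such library in every group, and at most 3.23 CPM. Gm47405, a predicted transcript inside the gene on the same strand, held 18 counts against 130 of Chrm3, and reads of the pair are less certain. Chrm1 (ENSMUSG00000032773, chromosome 19, 8663789 to 8683587, plus strand), the second muscarinic receptor of the gland, was counted at 26, 0 and 19 reads in Tert+ and 0, 24 and 11 in Tert- without RT. After RT the Tert+ libraries had 0, 20, 0 and 0 counts and the Tert- libraries 34, 0, 0 and 31. Chrm1 was at 0 in 7 of 14 libraries and at most 6.17 CPM. At these counts the 95% confidence intervals of the Chrm1 and Chrm3 log2 fold changes in the 5 planned comparisons each held at least the span from -1.57 to 2.29.

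Itpr2 (ENSMUSG00000030287, chromosome 6, 146108299 to 146502223, minus strand), the inositol trisphosphate receptor that carries much of the calcium release in acinar cells, was the steadiest of the 9 genes. It had 176, 63.5 and 74.2 CPM in Tert+ and 189, 70.5 and 84.6 CPM in Tert- without RT. In irradiated glands it had 144, 219, 145 and 115 CPM in Tert+ and 189, 195, 188 and 205 CPM in Tert-. In both populations replicate 1 without RT was high and the other 2 were lower than every library after RT. The Tert- libraries after RT lay close together, at 194 ± 7.83 CPM (SD, n = 4).

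Slc12a2 (ENSMUSG00000024597, chromosome 18, 57878678 to 57946821, plus strand), the basolateral cotransporter that loads acinar cells with chloride, had 123, 56.1 and 12.1 CPM in Tert+ and 24.3, 31.3 and 76.8 CPM in Tert- without RT. After RT it had 19.8, 56.3, 75.9 and 5.65 CPM in Tert+ and 30.8, 34.8, 22.1 and 38.2 CPM in Tert-. The ranges of all 4 groups overlapped, and the spread was narrowest in Tert- after RT. Ano1 (ENSMUSG00000031075, chromosome 7, 144588549 to 144751974, minus strand), the calcium-activated chloride channel of the luminal membrane, had 52.0, 15.2 and 4.02 CPM in Tert+ and 4.71, 36.8 and 11.4 CPM in Tert- without RT. After RT it had 20.04, 14.2, 54.9 and 2.14 CPM in Tert+ and 23.2, 11.03, 17.5 and 44.2 CPM in Tert-. Each group held both a high and a low library for Ano1.

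Kcnn4 (ENSMUSG00000054342, chromosome 7, 24370263 to 24386690, plus strand), the intermediate-conductance calcium-activated potassium channel, had 198, 30.5 and 31.3 CPM in Tert+ and 54.9, 15.8 and 70.2 CPM in Tert- without RT. The values after RT were 17.1, 25.1, 23.3 and 8.21 CPM in Tert+ and 26.8, 9.08, 11.8 and 20.3 CPM in Tert-. Every Tert+ library after RT lay below every Tert+ library without RT, and in Tert- replicate 2 without RT lay within the range after RT. Kcnma1 (ENSMUSG00000063142, chromosome 14, 23289431 to 24014491, minus strand), the large-conductance calcium-activated potassium channel, had 28.6, 7.40 and 2.20 CPM in Tert+ and 3.09, 3.58 and 10.2 CPM in Tert- without RT. After 15 Gy it had 10.9, 7.76, 21.6 and 0 CPM in Tert+, where the 0 allows up to 0.257 CPM, and 11.4, 9.21, 2.25 and 11.6 CPM in Tert-. Its groups overlapped throughout.

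Aqp5 (ENSMUSG00000044217, chromosome 15, 99590782 to 99594829, plus strand), the apical water channel of acinar cells, had 262, 3.03 and 7.36 CPM in Tert+ and 25.5, 4.98 and 49.97 CPM in Tert- without RT. After RT it had 23.4, 59.2, 22.9 and 11.4 CPM in Tert+ and 13.4, 5.06, 11.4 and 26.9 CPM in Tert-. The highest and the lowest of the 14 libraries both belonged to Tert+ without RT, so that group's mean of 90.7 ± 148 CPM (SD, n = 3) rests on replicate 1. Fxyd2 (ENSMUSG00000059412, chromosome 9, 45399669 to 45410278, plus strand), the gamma subunit of the sodium pump and best known from kidney tubules, had 164, 62.3 and 81.6 CPM in Tert+ and 138, 142 and 443 CPM in Tert- without RT. The values after RT were 120, 129, 222 and 57.7 CPM in Tert+ and 151, 350, 185 and 164 CPM in Tert-. The Tert- libraries lay mostly above the Tert+ ones, with overlap both without and after RT.

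The first question was whether the machinery differed between Tert+ and Tert- cells. Without RT, 0 of the 9 genes passed an adjusted p of 0.05 in edgeR, against 0.0377% of all genes tested. At an unadjusted p under 0.05 there was 1 of 9, Fxyd2, against 4.50% of all genes, and 0 of 9 had ranges that did not overlap, against 8.87%. DESeq2 also called 0 of 9. Fxyd2 differed by -1.23 on the log2 scale (SE 0.54, 95% confidence interval -2.39 to -0.08, adjusted p = 1), with a mean of 103 ± 54.1 CPM in Tert+ and 241 ± 175 CPM in Tert-. Without Tert- no RT replicate 3 that difference was -0.45. The summed CPM of 9 duct markers, among them the kallikrein Klk1 and the growth factor gene Egf, was 1661 to 4885 in Tert+ and 3324 to 13377 in Tert-. That sum rests mostly on Klk1, with a median of 1984 CPM over the 14 libraries, against 41.1 CPM for Krt7, the next highest. By log2 difference, 7 of the 9 duct markers were below 0 and 2 above. The duct keratin Krt19 was at 0 in 6 of 14 libraries. The part of duct cells in the Fxyd2 difference was not tested. Aqp5 differed by 1.75 (95% confidence interval -1.19 to 4.70), and by -2.36 without Tert+ no RT replicate 1. The median log2 difference of the 9 genes was 0.49, with 6 above 0 and 3 below, against 0.01 over all genes.

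After RT, 0 of 9 genes differed between Tert+ and Tert- at an adjusted p of 0.05, against 0.0126% of all genes. At an unadjusted p under 0.05 there were 0 of 9, against 7.39%, and 0 of 9 had ranges that did not overlap, against 4.88%. DESeq2 also called 0 of 9. Fxyd2 differed by -0.69 on the log2 scale (95% confidence interval -1.68 to 0.31, adjusted p = 0.830). Aqp5 differed by 1.02 (95% confidence interval -1.54 to 3.58) and Slc12a2 by 0.31 (95% confidence interval -1.20 to 1.82). These intervals still hold differences of more than 2-fold in either direction for Slc12a2, so the comparison could not show differences of that size. The median of the 9 genes was 0.11, with 5 above 0 and 4 below, against -0.0041 over all genes.

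The next question was whether radiation changed these genes. In Tert+ cells, 0 of 9 genes passed an adjusted p of 0.05, against 1.98% of all genes tested. Kcnn4 was the 1 of 9 at an unadjusted p under 0.05, against 18.0%, and the 1 of 9 whose ranges did not overlap, against 15.5%, so both counts were near the background. Kcnn4 had a mean of 86.7 ± 96.7 CPM without RT and 18.4 ± 7.62 CPM after it, a log2 difference of -2.24 (SE 0.65, 95% confidence interval -3.62 to -0.86, adjusted p = 0.0871). DESeq2 gave -2.23 with an adjusted p of 0.0110, and it called 1057 of all genes there, against 315 by edgeR. Without Tert+ no RT replicate 1, edgeR gave -0.76 (adjusted p = 0.471). Itpr2 differed by 0.58 (95% confidence interval -0.18 to 1.34) and Ano1 by -0.05 (95% confidence interval -2.03 to 1.92). The median of the 9 genes was -0.34, with 3 above 0 and 6 below, against -0.0013 over all genes.

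In Tert- cells, 0 of 9 genes passed an adjusted p of 0.05 with RT, against 1.62% of all genes. Kcnn4 was the 1 of 9 at an unadjusted p under 0.05, against 18.8%, and 0 of 9 had ranges that did not overlap, against 18.9%. DESeq2 also called 0 of 9. Kcnn4 had a mean of 47.0 ± 28.0 CPM without RT and 17.0 ± 8.12 CPM after it, a log2 difference of -1.47 (95% confidence interval -2.84 to -0.10, adjusted p = 0.233). Itpr2 differed in the other direction, by 0.76 (95% confidence interval -0.01 to 1.52, adjusted p = 0.270), and by 1.33 without Tert- no RT replicate 1, where the adjusted p was 0.0423. Aqp5 differed by -0.90 and Slc12a2 by -0.48, both with intervals of more than 1 on either side of 0. The median of the 9 genes was -0.18, with 4 above 0 and 5 below, against -0.02 over all genes.

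The effect of RT was not shown to differ between the populations for any of the 9 genes. Tested directly, the difference of the RT effects passed an adjusted p of 0.05 for 0 of 9 genes, against 0% of all genes, and an unadjusted p under 0.05 for 0 of 9, against 3.63%. DESeq2 also called 0 of the 9. For Kcnn4 it was -0.77 on the log2 scale (95% confidence interval -2.71 to 1.18) and for Itpr2 -0.18 (95% confidence interval -1.25 to 0.88). The median of the 9 genes was -0.50, with 2 above 0 and 7 below, against 0.01 over all genes.

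**Figure D2:**
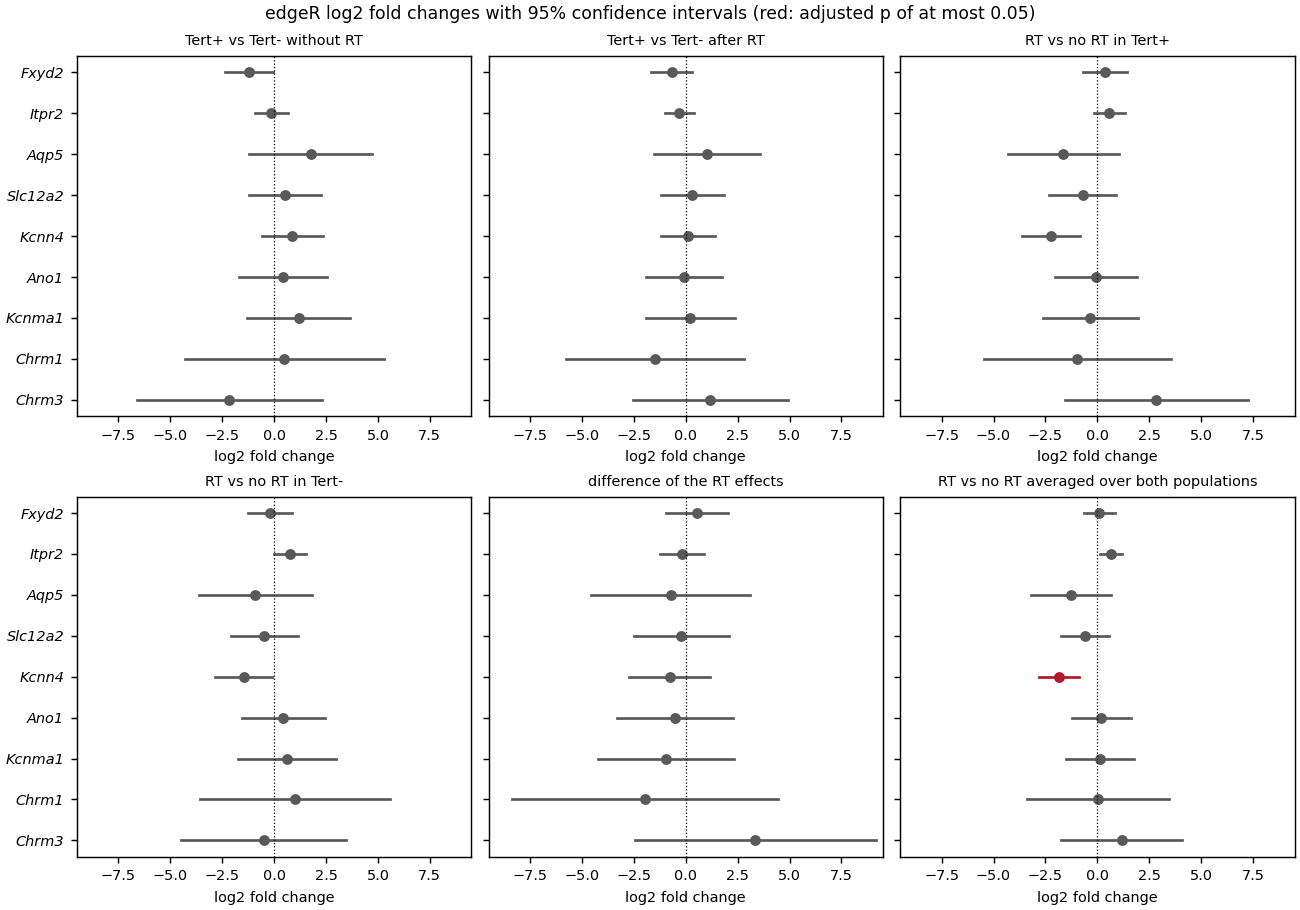
Log2 fold change of each of the 9 genes (points) with its 95% confidence interval (lines) in each of the 6 comparisons. Intervals were derived from the edgeR fit, and red marks an adjusted p of at most 0.05. Kcnn4 lies below 0 with RT in Tert+ at -2.24 and in Tert- at -1.47, and the intervals of Chrm1 and Chrm3 are the widest.

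RT was also averaged over both populations in the same fit, a comparison added after these values were seen. Kcnn4 fell by 1.85 on the log2 scale (SE 0.46, 95% confidence interval -2.83 to -0.88, adjusted p = 0.0161). It was the 1 of 9 genes called, against 13.4% of all genes, while Kcnn4 and Itpr2, 2 of 9, had an unadjusted p under 0.05, against 28.9%. Among the settings that do not pair libraries by number, the Kcnn4 call was lost with limma voom (adjusted p = 0.0833), with no filter on low counts (adjusted p = 0.0676), when Tert+ no RT replicate 1 was left out (-1.11, adjusted p = 0.0542) and when Tert- no RT replicate 3 was (-1.65, adjusted p = 0.0509). The log2 difference stayed between -1.11 and -2.06 whichever library was left out. With the replicate block the Kcnn4 call was lost as well. The sample descriptions give the Tert+ and Tert- libraries of each replicate neighbouring numbers, so they may be pairs. The labels do not say whether same-numbered libraries share an animal. If they do, the averaged comparison treats libraries of the same animal as independent. Itpr2 differed by 0.67 (95% confidence interval 0.13 to 1.21, adjusted p = 0.0940). Of the remaining 7 genes, none had an interval that left out 0 in the averaged comparison, and Aqp5 was at -1.27 (95% confidence interval -3.17 to 0.64). The median of the 9 genes was 0.09, with 6 above 0 and 3 below, against -0.0099 over all genes.

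The 9 genes were also set against marker genes of cell types, and in bulk samples fewer cells of a type and less RNA per cell cannot be told apart. Each library was given a score for each of 5 marker lists, the mean log2 CPM of the list, and 45 relations of gene and score were computed over the 14 libraries, with permutation p-values adjusted over the 45. Aqp5 followed the score of 12 acinar markers, among them the transcription factor gene Bhlha15 and the secreted proteins Pip and Smgc, with Pearson's r = 0.887 (adjusted permutation p = 0.00270) and Spearman's rho = 0.877 (adjusted permutation p = 0.00360). Its r was 0.823 without the 2 libraries farthest from the median score, 0.913 within the 6 libraries without RT and 0.786 within the 8 after RT. Fxyd2 followed the duct score, with r = 0.802 (adjusted permutation p = 0.00877) and rho = 0.793 (adjusted permutation p = 0.0225). Its r was 0.706 without the 2 farthest libraries, 0.861 without RT and 0.841 after RT. Fxyd2 followed the score of 8 epithelial markers with r = 0.758 (adjusted permutation p = 0.0216) and rho = 0.705 (adjusted permutation p = 0.0604), and r was 0.755 without the 2 farthest libraries.

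Slc12a2 followed the epithelial score, with r = 0.805 (adjusted permutation p = 0.00975) and rho = 0.745 (adjusted permutation p = 0.0388). Its r was 0.550 without the 2 farthest libraries, 0.786 without RT and 0.822 after RT. The relation of Slc12a2 to the duct score, r = 0.722 (adjusted permutation p = 0.0345) and rho = 0.613 (adjusted permutation p = 0.116), fell to 0.270 without the 2 farthest libraries and rests on them. Its r was 0.594 without RT and 0.879 after RT, with all libraries kept. The same holds for Kcnma1 and the epithelial score, with r = 0.725 (adjusted permutation p = 0.0352) and rho = 0.521 (adjusted permutation p = 0.222). That r was 0.265 without the 2 libraries farthest from the median of that score, 0.808 without RT and 0.708 after RT. Kcnn4 and the acinar score gave r = 0.583 (adjusted permutation p = 0.115) and rho = 0.609 (adjusted permutation p = 0.116) over all libraries, and r = 0.737 within those without RT and 0.859 within those after RT. Itpr2 ran against the B cell score, with r = -0.651 (adjusted permutation p = 0.0699) and rho = -0.741 (adjusted permutation p = 0.0388), r = -0.708 without the 2 farthest libraries, -0.921 without RT and -0.754 after RT.

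**Figure D3:**
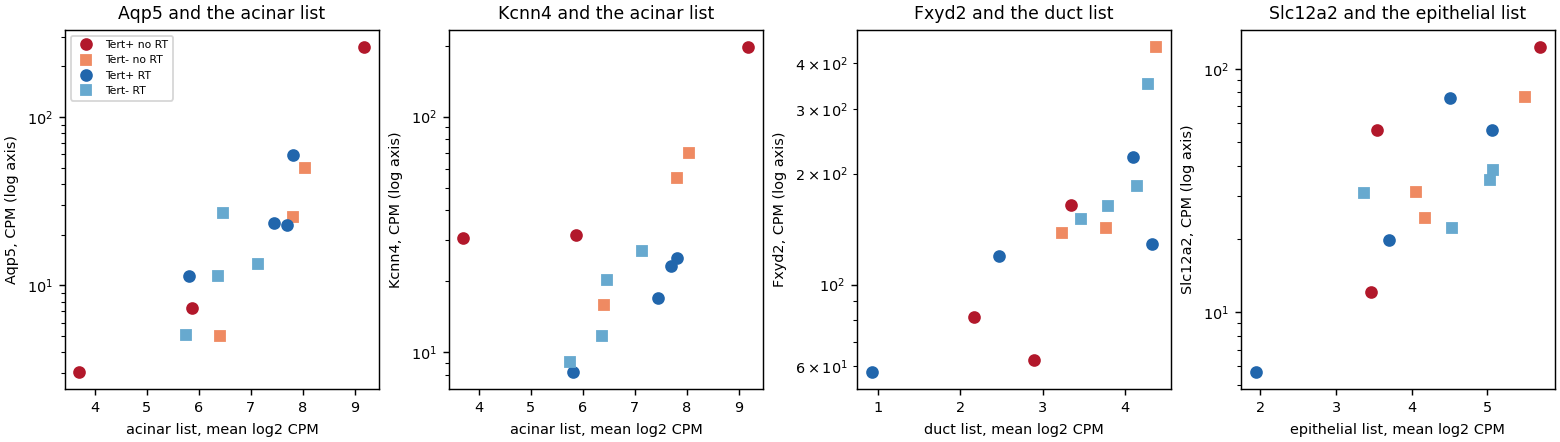
Level of a gene (CPM, vertical log axis) against a marker list score (mean log2 CPM, horizontal axis), in 4 panels with 1 point per library, coloured by group. Aqp5 rises with the acinar score (r = 0.887) and Fxyd2 with the duct score (r = 0.802), and for Kcnn4 the libraries without RT lie mostly above those after RT at a like acinar score.

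Because Kcnn4 tracked the acinar score within each RT status, the RT comparisons were repeated with that score as a covariate, the only score tried and a choice made after the values were seen. A score picked for following Kcnn4 takes up part of its spread, so narrower intervals come in part from that choice. The score was measured in the same libraries and can itself change with RT. Whether RT changed Kcnn4 or Itpr2 apart from acinar content was therefore not tested by these fits. Kcnn4 averaged over both populations was then at -1.59 on the log2 scale (SE 0.23, 95% confidence interval -2.09 to -1.09, adjusted p = 0.00101), and it was called in 14 of 14 fits that left out 1 library, at -1.73 to -1.18. In Tert+ it was at -2.42 (95% confidence interval -3.17 to -1.67, adjusted p = 0.00709), called in 13 of 14 such fits; without Tert+ no RT replicate 1 it was at -2.70 with an adjusted p of 0.264. In Tert- it was at -0.76 (95% confidence interval -1.50 to -0.02, adjusted p = 0.222). Itpr2 averaged over both populations was at 0.76 (95% confidence interval 0.37 to 1.14, adjusted p = 0.0132) and called in 14 of 14 such fits; in Tert- it was at 1.09 (adjusted p = 0.0362) and called in 8 of 14. Aqp5, whose averaged RT difference was -1.27 without the covariate, was at -0.01 with it (95% confidence interval -0.83 to 0.81). Of the 12 acinar genes behind the score, 2, Pip and Lpo, fell with RT in the averaged comparison, a count near the 13.4% of all genes, with log2 differences of -3.62 and -4.86 (adjusted p = 0.0171 and 0.0389). The list did not move as a whole, with 7 log2 differences below 0, 5 above and a median of -0.26, against -0.0099 over all genes. The summed CPM of the 12 acinar markers was 2793 to 32841 in Tert+ and 4255 to 19085 in Tert- without RT, and 4266 to 26637 and 4034 to 14547 after RT.

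Marker lists of other cells were set beside these values. Within each population, RT called 0 of 7 T cell, 0 of 8 B cell and 0 of 7 macrophage markers in edgeR. Of all genes, 1.98% were called in Tert+ and 1.62% in Tert-. In the averaged comparison 1 of 7, 0 of 8 and 2 of 7 were called, against 13.4% of all genes. The summed CPM of 7 T cell markers was 219 to 588 in Tert+ and 183 to 548 in Tert- without RT, and 97.3 to 367 and 83.5 to 171 after RT, with 7 of 7 log2 differences below 0 in both populations and Cd8a at 0 in 2 of 14 libraries. Their median was -0.74 in Tert+ and -1.78 in Tert-, against -0.0013 and -0.02 over all genes. The 8 B cell markers summed to 8875 to 13150 and 8069 to 13282 CPM without RT and to 9986 to 11639 and 9353 to 10199 CPM after it, with all 8 counted in 14 of 14 libraries. The 7 macrophage markers summed to 118 to 283 CPM in Tert+ and 1528 to 1864 CPM in Tert- without RT, and to 94.2 to 192 and 252 to 1166 CPM after it, with Adgre1 at 0 in 1 library and Mrc1 in 3. Log2 differences with RT were below 0 for 4 of the 7 macrophage markers in Tert+ and for 7 of 7 in Tert-. The parts of these cells in the Kcnn4 and Itpr2 values were not tested.

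Slc12a2, Ano1 and Kcnma1 varied together over the 14 libraries. Of 36 pairs among the 9 genes, the highest correlations of log2 CPM were r = 0.862 for Slc12a2 and Kcnma1, 0.789 for Ano1 and Kcnma1 and 0.722 for Slc12a2 and Ano1. They were 0.841, 0.757 and 0.671 without Tert+ no RT replicate 1. Tert+ RT replicate 4, the lowest library for each of these genes, was not left out. Aqp5 and Kcnn4 gave 0.692, and 0.423 without that library. The lowest was -0.574 for Ano1 and Chrm3. Points in these correlations share a library's cell makeup and depth, and no test was made of them.

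**Figure D4:**
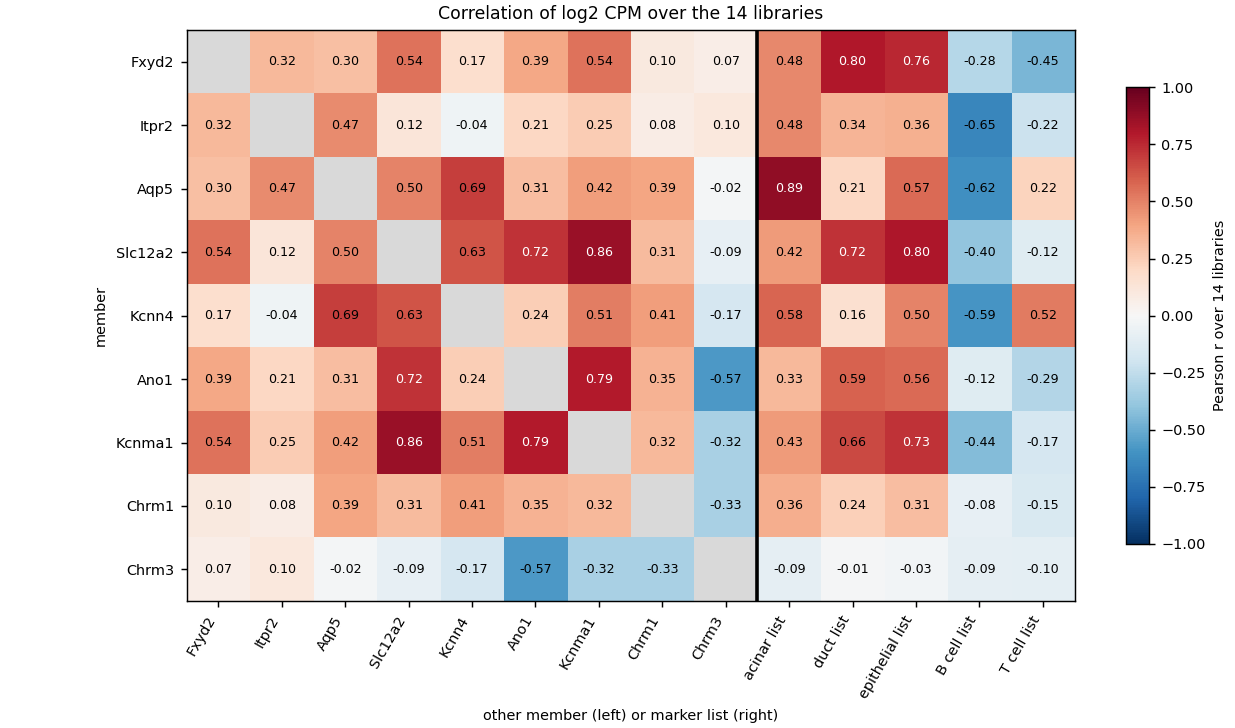
Pearson correlation of log2 CPM over the 14 libraries for each pair of the 9 genes (left block) and of each gene with 5 marker list scores (right block), as a coloured grid with its values. The block of Slc12a2, Ano1 and Kcnma1 holds values of 0.722 to 0.862.

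Among 8096 named genes of adequate level, the 3 whose log2 CPM followed each gene most closely over the 14 libraries were listed. For Aqp5 they were Wfdc12 (r = 0.907), Ppp1r1b (0.899) and Pigr (0.889), the last encoding the receptor that carries immunoglobulin A into secretions. For Slc12a2 they were Gstm2 (r = 0.933), Clstn1 (0.905) and Plet1 (0.879), and for Kcnma1 Tspan12 (r = 0.880), Clstn1 (0.872) and Tspan8 (0.859), so Clstn1 stood in both. For Kcnn4 they were the secreted product genes Mucl2 (r = 0.926), Scgb2b27 (0.925) and Scgb1b27 (0.923), with r = 0.855, 0.855 and 0.847 without Tert+ no RT replicate 1. Mucl2 had 81797 CPM in that library, 15684 in the next highest and a median of 910.1 CPM, and secretoglobin genes such as the Scgb pair have close copies, so their counts are less certain.

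For Fxyd2 the 3 were S100a1 (r = 0.949), Atp6v0d2 (0.916), a subunit of the vacuolar proton pump, and Ckmt1 (0.889), a mitochondrial creatine kinase. For Itpr2 they were Wnk1 (r = 0.953), a kinase that regulates chloride cotransporters, Zbtb11 (0.952) and Abca1 (0.952). For Ano1 the values were lower, with Twistnb (r = 0.782), Dhx57 (0.768) and Nrf1 (0.766). For Chrm1 they were Wdr83 (r = 0.830), Zdhhc7 (0.768) and Supt5 (0.754), and for Chrm3 Ssr3 (r = 0.820), Kctd6 (0.754) and Zc3h7b (0.731), which rest on few counts of the receptors.

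Few other genes of fluid secretion passed the test. Of 25 partners, which cover the sodium pump, exchangers, other aquaporins and calcium signalling, 22 were tested, and 0 passed the threshold in the 5 planned comparisons, against 0% to 1.98% of all genes. In edgeR 0 to 3 of the 22 had an unadjusted p under 0.05 there, against 3.63% to 18.8% of all genes. Averaged over both populations, 1 of 22 rose and 1 of 22 fell with RT, a count near the 13.4% of all genes called. Itpr1, a further inositol trisphosphate receptor, rose by 0.76 on the log2 scale (adjusted p = 0.00551), and Atp1b3, a beta subunit of the sodium pump, fell by 0.44 (adjusted p = 0.0161). Their median log2 difference in that comparison was 0.12, against -0.0099 over all genes. Per kilobase, Atp1b3 was the highest partner by mean, at 86.1 CPM. Aqp1, Aqp4 and Aqp8 had too few counts to be tested.

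Among other receptors for transmitters, the ATP-gated channel gene P2rx4 had a mean of 14.5 CPM per kilobase and did not pass the threshold in any of the 6 comparisons in edgeR. Chrm2, Chrm4, Chrm5 and Tacr1 were at 0 in 14 of 14 libraries. Of 9 genes of ductal salt transport, 8 were tested and 0 passed in any of the 6 comparisons in edgeR, against 0% to 13.4% of all genes. In those comparisons 0 to 1 of the 8 had an unadjusted p under 0.05, against 3.63% to 28.9%. Fxyd4 at 6.02 and Kcnk1 at 3.16 CPM per kilobase were the highest of them by mean. These lists were tested with all 14 libraries only.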

How the data were processed

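RNA of sorted submandibular gland cells was sequenced in 14 libraries from 1 ng of RNA each, per the labels' protocols. The deposited table holds raw counts of reads per gene made by the authors, with gene positions and lengths, per the file headers. The submitters' processing notes name HISAT2 and the build mm10; the counting program, annotation release and strand setting are not given in the sources used here, so reads of overlapping genes cannot be told apart by strand. Positions of the 9 genes were the same in GENCODE release M21.

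The counts went through edgeR 4.0.16 in R 4.3.3: filterByExpr on the 4 groups left 15915 genes, TMM factors scaled the libraries, and all 14 libraries entered a single model of the 4 groups. Its quasi-likelihood F tests are two-sided, and their p-values were adjusted by the Benjamini-Hochberg method across the 15915 genes, with a threshold of 0.05. Log2 fold changes, standard errors and adjusted p-values are edgeR's unless another tool is named. CPM is the count over the TMM-scaled total. Group values are mean ± SD. Alternatives used limma 3.58.1 (voom), DESeq2 1.42.0, other scaling factors, other filters, a replicate block, each library left out, and, added after values were seen, RT averaged over both populations and the acinar score as a covariate. Correlations over libraries used log2 CPM and 100000 permutations in Python 3.11.15 with scipy 1.17.1. The edgeR steps were tested on simulated data. Reads carry no molecular identifiers, so limits of 3 counts describe counting error and not molecules.

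The genes and the 13 gene lists were chosen with earlier results of these data known. Named beside the 9 genes were, per pathway list, the genes past the threshold in any comparison and the 2 highest by mean CPM per kilobase, and, per gene, the 3 named genes with the highest correlation among those whose log2 CPM averaged 3 or more; marker genes were named as examples. Some results of these lists are not reported here.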

Additional observations from a re-analysis of the deposited data

Results flagged for a closer look

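In groups of 4 libraries, a library was picked out when its gap to the nearest other was a large share of the group's range (Dixon's criterion). Of 18 such group tests over the 9 genes, 2 were met. The criterion's chance rate of about 1 in 20 is for normally spread values and does not hold for groups mostly at 0. A group with counts in only 1 library meets it by construction, as Chrm1 did. Chrm1 had 3.23 CPM in Tert+ after RT replicate 2 and 0 in the other 3 libraries of that group. Chrm3 had 2.85 CPM in Tert- after RT replicate 2 and at most 0.0863 CPM in the other 3. Both values rest on few reads, with 20 counts of Chrm1 and 22 of Chrm3.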

How the results depend on the processing

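The alternatives were other scaling factors, DESeq2, limma voom, other filters on low counts, only the groups compared, a replicate block, each library left out in turn and, for RT, the acinar score as a covariate. Of 1187 alternative values of 54 log2 fold changes, 1086 kept their direction and their side of the threshold, 87 changed sign, 9 became called and 5 lost a call. The cause of these changes was not tested.

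The count of the 9 genes called with RT in Tert+ was 0 in edgeR and 1 with DESeq2 and with the acinar covariate. In Tert- it was 0, 1 with the covariate, and 0 to 1 with a library left out. Averaged over both populations it was 1, with 2 under DESeq2 and under the covariate, 0 with no filter on low counts, 0 with the replicate block, and 0 to 2 with a library left out. The number of all genes called moved too. Settings that kept every library gave 49 to 1057 in Tert+, against 315 in the main fit. They gave 88 to 1198 in Tert-, against 258, and 1627 to 3023 averaged, against 2126. The counts among the 9 genes are to be read beside these. Deviations of same-numbered Tert+ and Tert- libraries correlated at -0.0021 to 0.119 without RT and -0.0491 to 0.0521 after RT. Libraries of different numbers gave -0.178 to 0.101 without RT and -0.0652 to 0.0632 after RT. The highest values without RT, 0.119 and 0.106, belonged to same-numbered libraries. These weak correlations, and the neighbouring numbers in the sample descriptions, cannot settle whether replicate numbers mark animals. Numbers were not taken as pairs in the main fit. With the replicate block Kcnn4 averaged had an adjusted p of 0.0622 in edgeR.

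Signs that changed belonged to log2 differences that passed no threshold. With limma voom these were Aqp5 between populations without RT (-0.57), Slc12a2 (-0.54) and Kcnma1 (-1.79) after RT, Aqp5 with RT in Tert+ (0.88), in the difference of RT effects (1.34) and averaged (0.20), and Kcnma1 (-0.45) and Chrm1 (-0.71) averaged. With the replicate block they were Aqp5 (-0.17) and Ano1 (-0.046) without RT, Slc12a2 (-0.15) and Kcnma1 (-0.34) after RT, Ano1 with RT in Tert+ (0.028), Fxyd2 in Tert- (0.21), Aqp5 in the difference (1.13), and Chrm1 (-0.49) and Chrm3 (-0.75) averaged. Upper-quartile factors gave Ano1 0.0070 with RT in Tert+. The covariate gave Aqp5 0.66 and Fxyd2 0.23 in Tert-, and Chrm1 -0.43 averaged.

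Leaving out 1 library gave, between populations without RT, Aqp5 -2.36 to 2.58, Slc12a2 -0.36 to 1.20, Ano1 -0.87 to 1.55, Kcnn4 -0.60 to 1.30, Kcnma1 -0.21 to 1.93, Chrm1 -0.57 to 1.39 and Itpr2 -0.73 to 0.41. After RT it gave Slc12a2 -0.23 to 0.69, Ano1 -0.99 to 0.39, Kcnn4 -0.10 to 0.41 and Kcnma1 -0.48 to 0.64. With RT in Tert+ it gave Aqp5 -2.23 to 2.48, Slc12a2 -1.24 to 0.20, Ano1 -0.96 to 1.24, Kcnma1 -1.03 to 1.06, Chrm1 -6.99 to 0.12 and Fxyd2 -0.0087 to 0.87. In Tert- it gave Slc12a2 -0.77 to 0.18, Ano1 -0.013 to 1.57, Chrm1 -0.25 to 1.91, Chrm3 -4.46 to 0.11 and Fxyd2 -0.52 to 0.60. For the difference it gave Aqp5 -1.55 to 3.38, Slc12a2 -0.88 to 0.67, Ano1 -1.62 to 0.78, Kcnn4 -1.18 to 0.70, Kcnma1 -1.70 to 0.42, Fxyd2 -0.23 to 1.04 and Itpr2 -0.75 to 0.41. Averaged, it gave Aqp5 -1.57 to 0.79, Ano1 -0.26 to 0.85, Kcnma1 -0.20 to 0.84, Chrm1 -2.99 to 0.57, Chrm3 -0.80 to 2.24 and Fxyd2 -0.10 to 0.48.

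Over all genes, edgeR called 6, 2, 315, 258 and 0 in the 5 planned comparisons and DESeq2 74, 109, 1057, 1198 and 12. limma voom called 26, 0, 482 and 405 in the first 4. No filter gave 16 and 4 between populations, the replicate block 1 after RT, only the groups compared 1 after RT and 49 and 88 with RT in Tert+ and Tert-, and the covariate 737 in Tert-. Leaving out 1 library gave 1 to 13, 0 to 7, 21 to 507, 18 to 901 and 0 to 1, and 1211 to 2516 averaged against 2126. Chrm1 and Chrm3 rest on at most 37 counts in a library, and the stricter filter left them without some values.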
